A study of Homo sapiens with 26 samples.

Results

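POU2F2 was knocked down in both cell lines of the series, and the genes that answered differently in SUDHL4 and in OCI-Ly7 are described here. The quantity is an interaction, the knockdown minus control difference of SUDHL4 minus that of OCI-Ly7, on the log2 scale. A positive interaction means that a gene moved higher in SUDHL4 relative to OCI-Ly7. It was taken from 18 of the 26 deposited files, which came down to 15 of 22 libraries after repeated files were merged. SUDHL4 had 2 POU2F2 knockdown libraries and 1 control library. OCI-Ly7 had 8 POU2F2 knockdown libraries and 4 control libraries.

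SUDHL4 and OCI-Ly7 are established cell lines from human B cell lymphomas with germinal centre features. All groups, controls included, carried by lentivirus a catalytically dead Cas9 fused to the KRAB repressor under the SFFV promoter, plus guide RNAs. Guides in the knockdown groups were aimed at POU2F2, and those of the control groups had no target. SUDHL4 was kept in RPMI-1640 and OCI-Ly7 in Iscove's medium, each with serum. OCI-Ly7 knockdown replicate 3 is marked 48 h, as is the file deposited as OCI-Ly7 control replicate 3, and the labels give no time for the others used here. All SUDHL4 libraries belong to batch 1 and all OCI-Ly7 knockdown libraries to batch 2, so the response of 1 line in 1 batch is set against that of the other line in the other batch, and line, medium and batch cannot be told apart. The labels do not say that replicates are separate cultures, so p-values measure a spread between these samples that may be technical. The fit gives each marked OCI-Ly7 series of batch 2 its own level. Differences in level between series are therefore not part of that spread.

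POU2F2 encodes OCT2, a transcription factor of B cells with a POU domain that binds the octamer motif in immunoglobulin and other B cell promoters. The coactivator OCA-B, encoded by POU2AF1, joins it on the octamer, and the related OCT1, encoded by POU2F1, is found in most cells. In the germinal centre, B cells mutate their immunoglobulin genes, are held in place by migration receptors and compete for T cell help through MHC class II.

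Between 24959865 and 53155548 estimated reads were assigned per file. The file deposited as OCI-Ly7 control replicate 3 equalled the sum of replicates 1 and 2, within 2 reads for 93.34% of 26588 genes, and was not counted again. Files 1 and 2 of each control group repeated each other: the spread of their counts was 1.122 and 1.148 times the sampling noise, against 2.39 to 70.35 times in 38 other pairs, and each pair was counted as 1 library. OCI-Ly7 knockdown replicate 3 stood apart from its group: its fragments averaged 184 bases, against 165 to 175 in the other 7 and 189 in the batch 1 control, and its deviations followed that control with a correlation of 0.72 across genes. It stood alone in its block of the fit and so added nothing to the fitted response, as did knockdown replicate 1 and control replicate 1. The B cell markers MS4A1, CD79A, CD79B and PAX5 were above 1 normalised CPM in every group. The 7 markers of T and NK cells summed to 2.86 to 2.89 CPM in SUDHL4 knockdown, 1.41 CPM in SUDHL4 control, 1.25 to 3.501 CPM in OCI-Ly7 knockdown and 1.17 to 1.90 CPM in OCI-Ly7 control, with CD3D and CD2 at or near 0. The 6 myeloid markers summed to at most 0.87 CPM in any library, with S100A8 at 0.

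The target gene was measured first. POU2F2 lies on the minus strand of chromosome 19 (42086110 to 42196585, GRCh38). It was at 43.6 and 55.3 CPM in the SUDHL4 knockdown libraries, against 330 CPM in the SUDHL4 control. In OCI-Ly7 it lay between 55.7 and 88.8 CPM in 7 knockdown libraries and at 148 CPM in replicate 3, against 406, 238, 248 and 207 CPM in the controls. Knockdown and control libraries did not overlap in either line. POU2F2 fell by 2.74 on the log2 scale in SUDHL4 (standard error 0.18, edgeR quasi-likelihood adjusted p = 4.6e-05) and by 1.70 in OCI-Ly7 (standard error 0.10, adjusted p = 0.00021). Within the 3 OCI-Ly7 series that hold both groups the differences were -1.91, -1.49 and -1.69. The interaction was -1.03 ± 0.21 (standard error; 95% interval -1.50 to -0.57), with an adjusted p of 0.061 that missed the threshold of 0.05. It passed at 0.00020 with DESeq2 and at 0.030 without OCI-Ly7 control replicate 7. It did not pass with all 22 libraries (-1.007, edgeR adjusted p = 0.61) or with the labels' batch as the term (-1.205, 0.9999). Its fitted log2 value was thus lower in SUDHL4, and the part of this in the other differences was not tested.

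The partners of OCT2 gave no call. POU2AF1 was at 540 and 502 CPM in SUDHL4 knockdown and 442 CPM in SUDHL4 control, and averaged 452 ± 52 CPM in OCI-Ly7 knockdown (SD, n = 8) and 454 ± 12 CPM in OCI-Ly7 control (SD, n = 4). Its interaction was 0.23 (95% interval -0.04 to 0.50, adjusted p = 0.54). POU2F1 had an interaction of -0.24 (95% interval -0.46 to -0.02, adjusted p = 0.38).

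**Figure D1:**
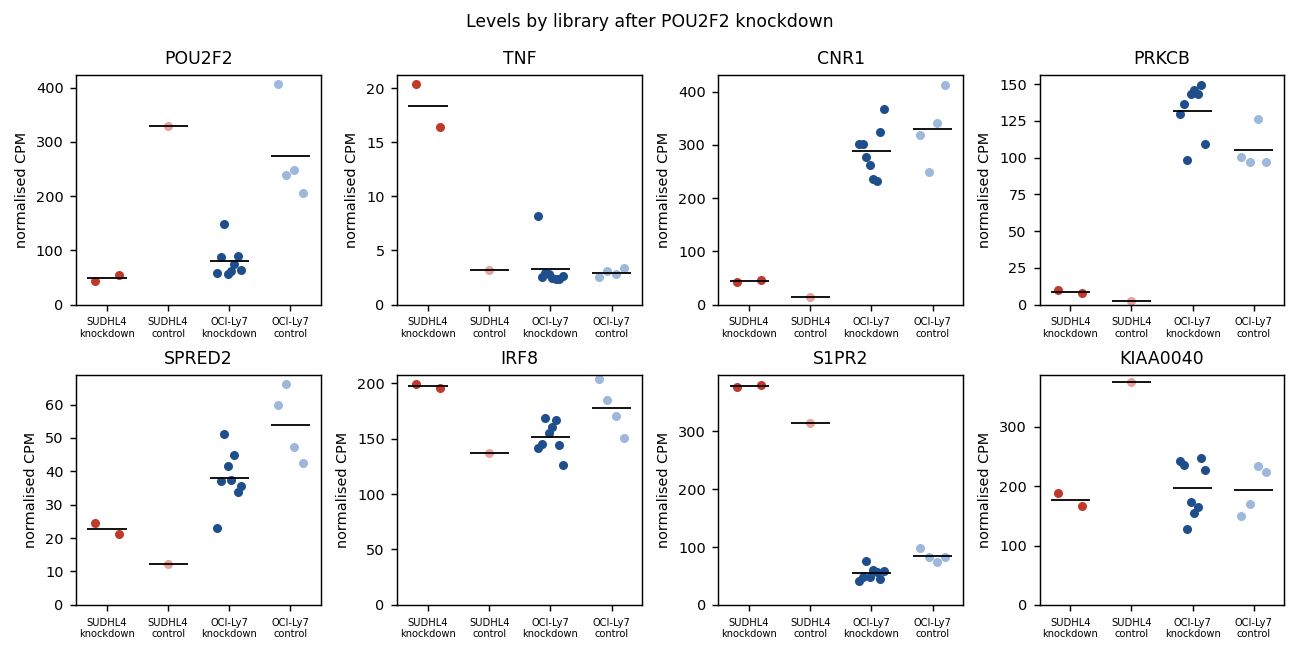
Normalised CPM of 8 genes in each library (points) with group means (lines), for SUDHL4 knockdown, SUDHL4 control, OCI-Ly7 knockdown and OCI-Ly7 control. TNF is at 20.4 and 16.4 CPM in SUDHL4 knockdown and at 3.20 CPM in its control, while OCI-Ly7 libraries sit near 3 CPM with the exception of knockdown replicate 1 at 8.18 CPM.

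Of 18263 genes tested, 149 were called in the interaction (0.816%), 108 of them higher (0.591%) and 41 lower (0.224%) in SUDHL4 relative to OCI-Ly7. The knockdown alone called 396 genes in SUDHL4 (2.17%; 285 rose, 1.56%, and 111 fell, 0.608%) and 86 in OCI-Ly7 (0.471%; 53 rose, 0.29%, and 33 fell, 0.181%). In this fit most calls came from SUDHL4. Of the 108 higher genes, 94 rose in SUDHL4 with no call in OCI-Ly7, and of the 41 lower genes, 32 fell in SUDHL4 with no call in OCI-Ly7. The median response of the higher genes was 0.94 in SUDHL4 and 0.02 in OCI-Ly7, and that of the lower genes -1.001 in SUDHL4 and 0.11 in OCI-Ly7. Only 4 genes were called with opposite signs in the 2 lines, and 28 were called in both with the same sign, 3 of which were also called in the interaction. The interaction was at least 2-fold for 68 genes. Both SUDHL4 knockdown libraries lay on the same side of the control for all 149, as they did for 75% of the genes tested. The 149 were called from these same libraries, which share 1 control, so this is a description and not a replication.

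How many genes were called depended on the fit. The libraries of batch 2, other than the 48 h library, carry series marks (s0 to s3), and the counts above come from a fit with the series as blocks. With the labels' 2 batches as the term in its place, edgeR called 0 genes in the interaction, with 375 at an unadjusted p below 0.05, against 2059 within series. DESeq2 within series called 299. Series s0 alone, an alternative chosen after seeing the data, called 151 higher and 237 lower in the interaction, with 1082 calls in SUDHL4 and 797 in OCI-Ly7. Of the 149, 48 kept their call in all 14 fits that left out 1 library each, 38 of them higher and 10 lower. Named among these are TNF, PLEKHO1, RAB43, TLR4, CNR1, SLAMF1, TMPRSS15, TRAC, PRKCB, SPRED2, S1PR2, IRF8, HLA-DMB, IFNGR1, CHD2, CD53, ICOSLG, SWAP70, IGHV1-69D, IGKV2-18, UCHL1, CHAC1, YBX3, PHGDH, GNPDA1, EPN2 and KIAA0040. Every other gene named below as called in the interaction lost that call without at least 1 library. Of the 48, 27 were also called with all 22 libraries. RAB43, CHAC1, S1PR2, IRF8, HLA-DMB, CHD2, ICOSLG, SWAP70, EPN2 and KIAA0040 were not. Of the 10 lower genes among the 48, 6 had a SUDHL4 control level below 2% of the OCI-Ly7 control mean. The SUDHL4 control is 1 library and could not be left out, so each SUDHL4 difference rests on it and borrows its spread from the other groups.

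**Figure D2:**
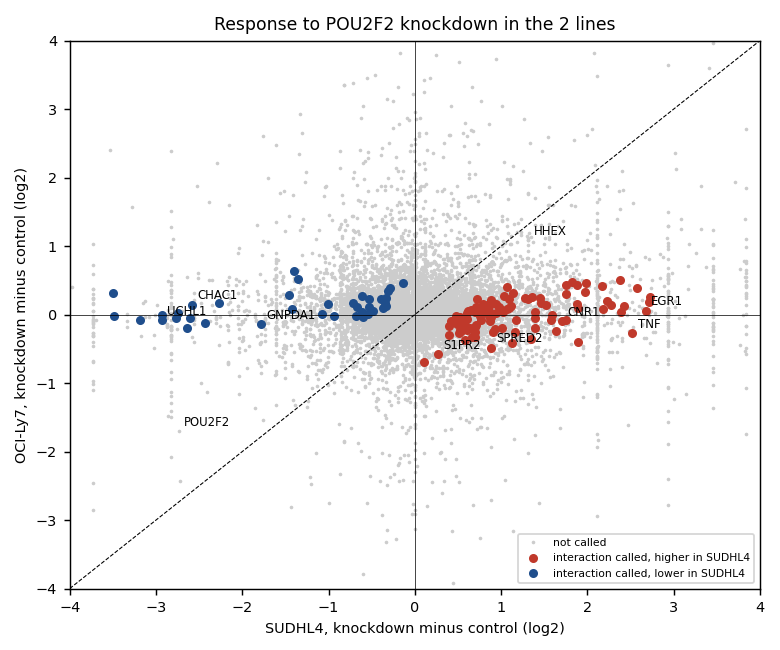
Fitted log2 response to POU2F2 knockdown in SUDHL4 (x) and OCI-Ly7 (y) for 17979 genes within 4 log2 units, with the genes called in the interaction in red (higher in SUDHL4) and blue (lower). Called genes spread along the SUDHL4 axis and stay near 0 on the OCI-Ly7 axis; 5 called genes lie beyond the axes.

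CD53 and PRKCB, which are called higher, carry the octamer of OCT2 just before their start, so these stretches are shown. CD53 encodes a tetraspanin of white blood cells and PRKCB the protein kinase C isoform that links the B cell receptor to NF-kB. The sequences are RefSeq's on GRCh38.p14, 5′ to 3′ on the plus strand, with the octamer in capitals (chr1:110871104-110871187 for CD53 and chr16:23835843-23835945 for PRKCB).
CD53: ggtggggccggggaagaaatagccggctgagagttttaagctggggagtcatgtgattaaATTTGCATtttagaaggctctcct
PRKCB: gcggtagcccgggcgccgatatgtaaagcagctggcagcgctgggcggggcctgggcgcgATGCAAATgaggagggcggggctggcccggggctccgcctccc
The motif searched was ATGCAAAT, or ATTTGCAT on the other strand, in the 250 bases before and 50 after the first start listed for each gene. It was present in 3 of 80 matched promoters of the 108 higher genes (3.75%, CD53, PRKCB and the histone deacetylase gene HDAC9) and in 0 of 28 of the 41 lower genes. Of the promoters of all genes tested 1.59% held it (182 of 11471), and so did 492 of all 27305 promoters listed, at 1.802%. A match describes these letters only.

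Of the protein-coding called genes at 1 CPM or more in both lines and with reads in every group, TNF had the highest interaction. TNF (ENSG00000232810, chromosome 6, 31575567 to 31578336, plus strand), the inflammatory cytokine, was at 20.4 and 16.4 CPM in SUDHL4 knockdown, against 3.20 CPM in SUDHL4 control. In OCI-Ly7 it ranged from 2.33 to 2.91 CPM in 7 knockdown libraries with replicate 1 at 8.18 CPM, against 2.52, 3.14, 2.79 and 3.39 CPM in the controls. The SUDHL4 groups lay apart and the OCI-Ly7 groups overlapped. The responses were 2.52 in SUDHL4 and -0.27 in OCI-Ly7, and the interaction was 2.79 ± 0.24 (adjusted p = 0.00010). PLEKHO1, a pleckstrin homology protein that binds casein kinase 2, was at 10.8 and 10.9 CPM in SUDHL4 knockdown, against 2.08 CPM in SUDHL4 control. Its OCI-Ly7 libraries held 71.0 to 123 CPM in knockdown and 77.3 to 119 CPM in control, and overlapped (interaction 2.35 ± 0.17, adjusted p = 1.7e-05).

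The innate receptors TLR4, which senses lipopolysaccharide, and TLR7, which senses RNA, had interactions of 2.10 ± 0.24 and 2.03 ± 0.34. TLR4 was at 6.68 and 4.64 CPM in SUDHL4 knockdown and 1.25 CPM in SUDHL4 control, below the 11.9 to 25.7 CPM of OCI-Ly7 knockdown and the 13.8 to 22.8 CPM of OCI-Ly7 control. The immediate early transcription factor EGR1 was at 22.7 and 15.03 CPM in SUDHL4 knockdown and 2.95 CPM in SUDHL4 control (interaction 2.62 ± 0.46, adjusted p = 0.017). In OCI-Ly7, EGR1 stayed between 0.22 and 0.72 CPM in 7 knockdown libraries and between 0.29 and 0.53 CPM in the controls, and replicate 1 of the knockdown was at 12.2 CPM. RAB43, a small GTPase of membrane traffic (2.47), the MS4A family member MS4A7 (2.30) and the homeobox gene CUX2 (2.14) completed the largest values by the rule, beside the interferon genes below.

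MFSD4B and C22orf46P were also among the largest, and both were listed at 0 in the SUDHL4 control. MFSD4B had 80 and 58 reads in SUDHL4 knockdown, on average 24.4-fold a floor of 3 reads in the control. C22orf46P had 155 and 92 reads, on average 43.5-fold that floor. MFSD4B was also at 0 in 6 and C22orf46P in 8 of the 12 OCI-Ly7 libraries, across both groups, with 30 to 124 and 146 to 438 reads in the rest. Libraries of 1 group thus ranged from 0 to such counts, so these folds describe the reads and are not lower bounds.

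CNR1 (ENSG00000118432, chromosome 6, 88139864 to 88166359, minus strand), the cannabinoid receptor 1, led the migration and G protein list. It was at 42.2 and 46.05 CPM in SUDHL4 knockdown, against 13.5 CPM in SUDHL4 control. In OCI-Ly7 it was far higher and overlapping, at 232 to 368 CPM in knockdown and 249.0 to 412 CPM in control. The interaction was 1.81 ± 0.13 (95% interval 1.53 to 2.09, adjusted p = 1.7e-05). Of 33 tested members of this list 3 were higher and none lower, against 0.591% higher over all genes, with a median interaction of 0.10 against -0.01 over all genes. The other 2 were S1PR2, the receptor that confines B cells to the germinal centre, and RGS16, an inhibitor of G protein signalling (0.74).

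S1PR2 differed through OCI-Ly7. It was at 378 and 381 CPM in SUDHL4 knockdown and 315 CPM in SUDHL4 control, a log2 difference of 0.27 that was not called (adjusted p = 0.27). In OCI-Ly7 it fell to 40.6 to 75.8 CPM in knockdown, against 73.3 to 98.2 CPM in control, with only knockdown replicate 3 inside the control range. The OCI-Ly7 response was -0.58 (adjusted p = 0.0029), with -0.58, -0.65 and -0.48 in the 3 series, and the interaction 0.85 ± 0.13 (adjusted p = 0.0071).

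In the germinal centre identity list 4 of 31 tested members were higher and none lower, IRF8, S1PR2 and MEF2C among them. The median interaction was 0.16, and over all genes 0.591% were higher. In SUDHL4 alone 5 members rose and 2 fell, and in OCI-Ly7 1 rose and 4 fell. Over all genes 1.56% rose and 0.608% fell in SUDHL4, against 0.29% and 0.181% in OCI-Ly7. The 7 germinal centre markers summed to 1645 to 1662 CPM in SUDHL4 knockdown and 1949 CPM in SUDHL4 control. In OCI-Ly7 they summed to 628 to 838 CPM in knockdown and 853 to 1056 CPM in control. IRF8, an interferon regulatory factor needed by B cells of the germinal centre, was at 199 and 196 CPM in SUDHL4 knockdown and 138 CPM in SUDHL4 control, a rise of 0.52. Its OCI-Ly7 value was -0.23 (adjusted p = 0.061), with -0.20, -0.24 and -0.26 in the series, and its interaction 0.75 ± 0.09 (adjusted p = 0.0023). MEF2C, a transcription factor downstream of the B cell receptor, was at 319 and 260 CPM in SUDHL4 knockdown and 186 CPM in SUDHL4 control, against 11.01 to 22.7 CPM in OCI-Ly7 knockdown and 12.7 to 24.2 CPM in OCI-Ly7 control (interaction 0.83 ± 0.16). IRF8 and MEF2C were also the only called members of the 24 B lineage transcription factors.

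B cell receptor signalling had 4 of 31 tested members higher and none lower, a share of 12.9% against 0.591% over all genes, with a median interaction of 0.19. PRKCB was at 10.0 and 7.69 CPM in SUDHL4 knockdown, against 2.25 CPM in SUDHL4 control, and at 98.6 to 149 CPM in OCI-Ly7 knockdown and 97.0 to 126 CPM in OCI-Ly7 control. Its interaction was 1.65 ± 0.23 (adjusted p = 0.0055). The inhibitory receptor CD22 was at 861 and 781 CPM in SUDHL4 knockdown and 538 CPM in SUDHL4 control (0.67 ± 0.11). PTPN6, the phosphatase SHP-1 that CD22 recruits, was at 27.2 and 23.0 CPM in SUDHL4 knockdown and 4.83 CPM in SUDHL4 control (1.88 ± 0.32). For CD22 the OCI-Ly7 groups overlapped. In PTPN6 the OCI-Ly7 response varied with the series, at 1.00, 0.11 and 0.36, and was not called.

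MHC class II had 3 of 19 tested members higher and 1 lower, against 0.591% higher and 0.224% lower over all genes. The median interaction of the list was 0.27. In SUDHL4 alone 8 of the 19 rose and 1 fell, and in OCI-Ly7 2 rose, with median responses of 0.41 and 0.17. Over all genes 1.56% rose in SUDHL4 and 0.29% in OCI-Ly7. HLA-DMB, a chain of the HLA-DM peptide editor, was at 160 and 154 CPM in SUDHL4 knockdown and 74.5 CPM in SUDHL4 control. It was at 125 to 181 CPM in OCI-Ly7 knockdown, above the 107 to 124 CPM of OCI-Ly7 control, so the groups lay apart in both lines. HLA-DMB rose in both, by 1.07 and by 0.40, and more in SUDHL4 (interaction 0.67 ± 0.10, adjusted p = 0.0055). Its partner HLA-DMA did likewise (0.72 in SUDHL4, 0.24 in OCI-Ly7, interaction 0.48 ± 0.09, adjusted p = 0.030), and CIITA, the master regulator of the class, rose in SUDHL4 by 0.60 with 0.02 in OCI-Ly7 (interaction 0.58). The lower member HLA-DQA2 had 0 and 1 reads in SUDHL4 knockdown and 18 in SUDHL4 control, against 37 to 163 reads in OCI-Ly7 knockdown and 29 to 100 in OCI-Ly7 control, and its near copy HLA-DQA1 makes its reads uncertain.

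The type I interferon list had 2 of 32 tested members higher and none lower, against 0.591% higher over all genes. The median interaction of the list was 0.43. In SUDHL4 alone 7 members rose and none fell, against none in either direction in OCI-Ly7. Over all genes 1.56% rose in SUDHL4 and 0.29% in OCI-Ly7. The list's median response was 0.46 in SUDHL4 and 0.18 in OCI-Ly7, a difference that was not tested. IFIT2, an antiviral RNA-binding protein, had 112 and 95 reads in SUDHL4 knockdown and 17 in SUDHL4 control (interaction 2.53 ± 0.49). SAMD9L, an antiviral restriction factor, had 96 and 70 reads in SUDHL4 knockdown and 15 in SUDHL4 control (2.19 ± 0.38). SAMD9L was at 20.1 CPM on average in OCI-Ly7 knockdown and 14.7 CPM in OCI-Ly7 control, above every SUDHL4 library.

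Other named genes were higher too, and of these IFNGR1, CHD2 and IGLL5 were the single called members of their lists. SLAMF1, a costimulatory receptor, was at 50.9 and 44.0 CPM in SUDHL4 knockdown and 12.8 CPM in SUDHL4 control, and below 1 CPM in all OCI-Ly7 libraries (2.28 ± 0.28). TMPRSS15, the gut protease enteropeptidase, had 132 and 109 reads in SUDHL4 knockdown and 8 in SUDHL4 control, against 14 to 46 in OCI-Ly7 knockdown and 18 to 43 in OCI-Ly7 control. The interferon gamma receptor chain IFNGR1 was at 43.0 and 36.9 CPM in SUDHL4 knockdown and 19.1 CPM in SUDHL4 control, with 21.01 to 30.9 CPM in OCI-Ly7 knockdown and 20.8 to 28.7 CPM in OCI-Ly7 control (0.99 ± 0.13). CHD2, a chromatin remodeller, rose by 0.79 in SUDHL4 (0.64 ± 0.10; -0.029 with the replicate number as block), and IGLL5, whose reads overlap the immunoglobulin lambda locus and are uncertain, had 0.88.

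The list of T and NK cell markers had 2 of 12 tested members higher and none lower, against 0.591% higher over all genes. Its median interaction was -0.09. TRAC, the T cell receptor alpha constant gene, was at 14.95 and 11.7 CPM in SUDHL4 knockdown and 3.62 CPM in SUDHL4 control (interaction 1.73 ± 0.20), and LCK, a Src family kinase of lymphocytes, was at 114 and 117 CPM in SUDHL4 knockdown and 71.2 CPM in SUDHL4 control (0.64 ± 0.12). CD3D and CD2 stayed at or near 0 in the same libraries, while CD3E averaged 2.39 CPM in SUDHL4 knockdown and was at 1.12 CPM in SUDHL4 control. The 7 markers summed to 2.86 and 2.89 CPM in SUDHL4 knockdown and 1.41 CPM in SUDHL4 control, and their part in these results was not tested.

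PDIA4, a disulfide isomerase and the only call among 26 chaperone genes, differed through OCI-Ly7. It was at 19.3 and 20.0 CPM in SUDHL4 knockdown and 18.2 CPM in SUDHL4 control. In OCI-Ly7 its level depended on the series, from 5.204 to 70.0 CPM in knockdown and from 9.45 to 75.5 CPM in control, and within the series the differences were -0.67, -0.63 and -0.85. PDIA4 fell by 0.70 in OCI-Ly7 (adjusted p = 0.0030), and the interaction was 0.81 ± 0.16.

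**Figure D3:**
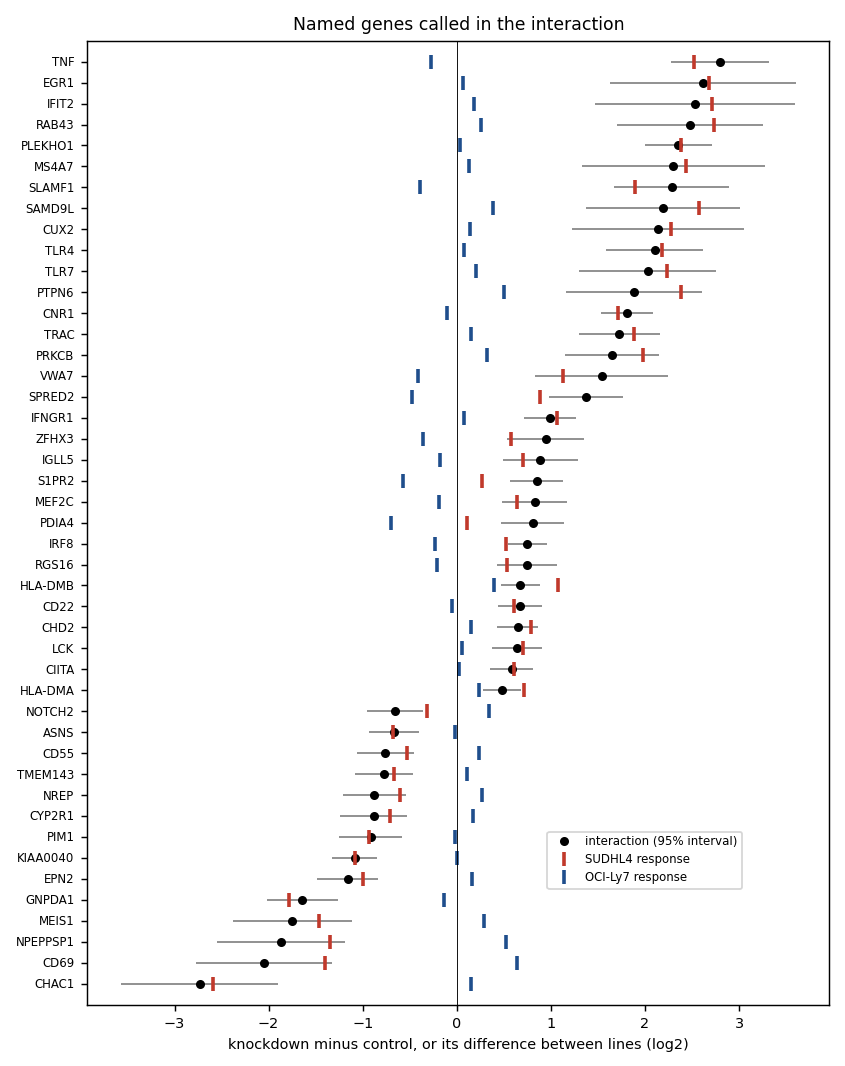
Named genes called in the interaction, with the interaction and its 95% interval (black, SUDHL4 minus OCI-Ly7, log2), the SUDHL4 response (red) and the OCI-Ly7 response (blue). Genes with under 10 reads in a SUDHL4 library are not drawn; for most genes the red mark lies near the black point and the blue mark near 0, while S1PR2, PDIA4 and NOTCH2 have the blue mark farther from 0 than the red.

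Genes that moved apart in the 2 lines, each by at least 0.3 in its own direction, were few. SPRED2, an inhibitor of the RAS and ERK pathway, was called in both lines. It was at 24.6 and 21.1 CPM in SUDHL4 knockdown, against 12.4 CPM in SUDHL4 control, and at 22.9 to 51.2 CPM in OCI-Ly7 knockdown, against 42.6 to 66.2 CPM in OCI-Ly7 control. It rose by 0.89 in SUDHL4 and fell by 0.48 in OCI-Ly7, where the series gave -0.68, -0.42 and -0.25 (interaction 1.37 ± 0.18, adjusted p = 0.0030). VWA7 (1.54) and the zinc finger homeobox gene ZFHX3 (0.94) had opposite signs without a call in either line. So did NOTCH2, a receptor of marginal zone B cells, which was lower, at 42.5 and 47.1 CPM in SUDHL4 knockdown and 55.6 CPM in SUDHL4 control and at 137 to 210 CPM in OCI-Ly7 knockdown and 124 to 168 CPM in OCI-Ly7 control (-0.66 ± 0.14). CD69, an early activation antigen that retains cells in lymphoid tissue, was called in both lines with opposite signs. It had 17 and 12 reads in SUDHL4 knockdown and 42 in SUDHL4 control, and rose by 0.64 in OCI-Ly7 (interaction -2.05 ± 0.33). NPEPPSP1 (ENSG00000274615), a pseudogene whose reads are uncertain because of near-identical copies, was at 1.09 and 1.48 CPM in SUDHL4 knockdown and 3.27 CPM in SUDHL4 control, against 2.58 to 11.4 CPM in OCI-Ly7 knockdown and 2.69 to 6.74 CPM in OCI-Ly7 control (-1.87 ± 0.31). SLAMF1, C22orf46P, HLA-DQA2 and GAB1, given elsewhere, also had opposite signs, each with few or no reads in at least 1 group.

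Of the 41 lower genes, KIAA0040 had the highest level in the SUDHL4 control. It was at 189 and 166 CPM in SUDHL4 knockdown, against 375 CPM in SUDHL4 control, and at 128 to 247 CPM in OCI-Ly7 knockdown and 149 to 235 CPM in OCI-Ly7 control, which overlap. The interaction was -1.08 ± 0.11 (adjusted p = 0.00047). GNPDA1, a glucosamine-6-phosphate deaminase, was at 1.91 and 2.59 CPM in SUDHL4 knockdown and 7.74 CPM in SUDHL4 control, below the 28.5 to 47.0 CPM of OCI-Ly7 knockdown and the 29.6 to 52.5 CPM of OCI-Ly7 control (-1.64 ± 0.18, adjusted p = 0.00071). EPN2, an endocytic adaptor, was at 4.46 and 5.54 CPM in SUDHL4 knockdown and 10.0 CPM in SUDHL4 control (-1.16 ± 0.15). The survival kinase gene PIM1 was at 22.7 and 25.5 CPM in SUDHL4 knockdown and 46.1 CPM in SUDHL4 control (-0.92 ± 0.16), while its OCI-Ly7 levels followed the series, from 22.6 to 94.6 CPM in knockdown and 24.6 to 52.2 CPM in control. The homeobox gene MEIS1 (-1.75), the vitamin D hydroxylase gene CYP2R1 (-0.88), NREP (-0.88), TMEM143 (-0.78) and CD55, a complement regulator (-0.76), were lower by smaller or less precise values.

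The ATF4 and amino acid list had 3 of 27 tested members lower and none higher, against 0.224% lower over all genes, with a median interaction of -0.28. ASNS, asparagine synthetase, was at 86.5 and 89.5 CPM in SUDHL4 knockdown, against 141 CPM in SUDHL4 control, and at 93.7 to 206 CPM in OCI-Ly7 knockdown and 102 to 166 CPM in OCI-Ly7 control (interaction -0.66 ± 0.12, adjusted p = 0.023). CHAC1, a glutathione-degrading enzyme induced by ATF4, had 19 and 15 reads in SUDHL4 knockdown and 112 in SUDHL4 control (-2.73 ± 0.39). PHGDH, the first enzyme of serine synthesis, had 7 and 3 reads in SUDHL4 knockdown and 34 in SUDHL4 control, against an average of 254 CPM in OCI-Ly7 knockdown and 245 CPM in OCI-Ly7 control, and belongs to the genes of the next paragraph.

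A part of the lower genes was all but absent from SUDHL4. Of the genes tested, 845 had a SUDHL4 control level below 2% of the OCI-Ly7 control mean. Of these 845, 11 are among the 41 lower genes and 3 among the 108 higher ones. Over all genes tested 0.224% were called lower and 0.591% higher. The 845 were picked by the levels of control libraries that enter the contrast, so these counts are descriptions. A set of 15 genes was taken at 50 CPM or more in OCI-Ly7 controls and under 0.2 CPM in the SUDHL4 POU2AF1 knockdown, a library that is in none of the contrasts here. Among them are the neuronal ubiquitin hydrolase gene UCHL1, the RNA-binding YBX3, the adaptor gene GAB1, SLITRK5, PHGDH and the immunoglobulin variable segments IGHV1-69D and IGKV2-18, and 9 of the 15 are called lower. On CPM of library totals, without TMM scaling, their median level was 0.062% and 0.030% of the OCI-Ly7 control mean in the SUDHL4 knockdown libraries. It was 0.045% in the SUDHL4 POU2AF1 knockdown, whose level the choice used, and 0.39% in the SUDHL4 control. UCHL1 had 11 and 2 reads in SUDHL4 knockdown and 55 in SUDHL4 control, against 4668 to 13374 in OCI-Ly7 knockdown and 6100 to 16747 in OCI-Ly7 control. In SUDHL4 knockdown against SUDHL4 control, YBX3 had 12 and 2 against 53 reads, GAB1 1 and 1 against 14, SLITRK5 2 and 4 against 26, and TRPM4, a cation channel gene outside this set, 3 and 2 against 26. The SUDHL4 control thus held a larger share of these OCI-Ly7 genes than the other SUDHL4 libraries, and the part of this in the lower genes was not tested. With all 845 left out of the test, 97 genes were called higher and 25 lower.

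**Figure D4:**
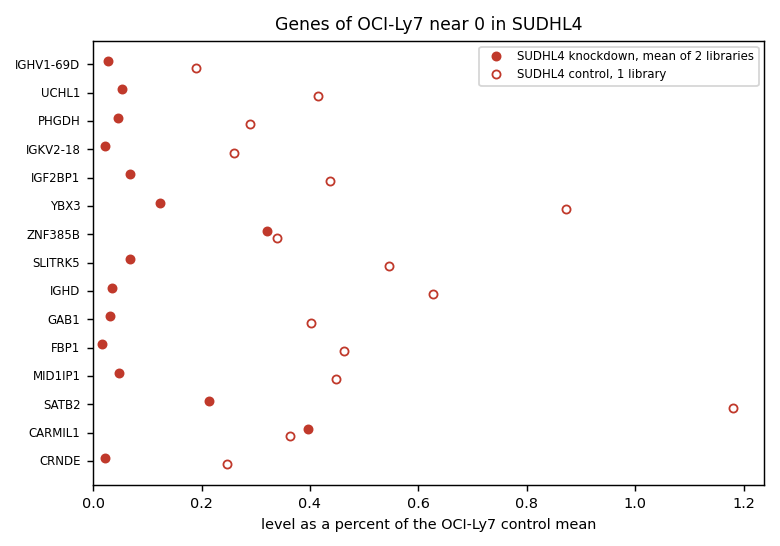
Level of 15 genes as a percent of their OCI-Ly7 control mean, in SUDHL4 knockdown (filled, mean of 2 libraries) and SUDHL4 control (open, 1 library). The control is at 0.19% to 1.18%; it lies above the knockdown for all but CARMIL1.

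The levels of the higher genes in the controls of the lines also differed. Of the 108 higher genes, 81.5% had a lower level in the SUDHL4 control than in the OCI-Ly7 control, against 53.3% of all genes tested. Under knockdown, 61.1% of them were lower in SUDHL4 than in OCI-Ly7, against 53.8% of all genes tested. The median log2 ratio of SUDHL4 to OCI-Ly7 for the higher genes was -0.33 in knockdown and -1.39 in control. The contrast uses the same libraries, so these are descriptions. In the SUDHL4 POU2AF1 knockdown, which shares that control, TNF was at 69.9 CPM, EGR1 at 45.7, HLA-DMB at 314 and CNR1 at 77.2 CPM, each above the 3.20, 2.95, 74.5 and 13.5 CPM of the control. S1PR2 was at 302 CPM there, against 315 CPM in the control, and MFSD4B and C22orf46P were listed at 0 in both. KIAA0040 was at 133 CPM and PIM1 at 12.8 CPM there, below the control.

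Genes that answered in both lines in the same direction give the other side. HHEX, a homeobox gene of blood cell development, was at 20.9 and 18.1 CPM in SUDHL4 knockdown and 7.84 CPM in SUDHL4 control, and at 1.71 to 4.66 CPM in OCI-Ly7 knockdown, above the 1.07 to 1.55 CPM of OCI-Ly7 control. HHEX rose by 1.31 in SUDHL4 and 1.08 in OCI-Ly7, and its interaction of 0.23 has a 95% interval of -0.32 to 0.78. In SUDHL4 and OCI-Ly7, PLXNC1, a semaphorin receptor gene, rose by 0.80 and 0.65 (interval -0.16 to 0.47), and PRICKLE1, of the planar polarity pathway, by 1.40 and 1.32 (interval -0.66 to 0.83). The repressor ZEB2 rose by 1.62 and 0.80 (interval of the interaction 0.26 to 1.40), the kinase AAK1 by 1.42 and 0.74 (0.12 to 1.24) and FCRL2, an Fc receptor-like protein of memory B cells, by 1.38 and 0.66 (0.24 to 1.21). The intervals of these last 3 lie above 0, but their adjusted p of 0.22, 0.31 and 0.20 did not pass, and a p above the threshold does not show equal responses. RNU6-33P, a small nuclear RNA pseudogene, was called lower in both, with 6 and 6 reads in SUDHL4 knockdown and 85 in SUDHL4 control. In OCI-Ly7 it had 0 to 2 reads in 7 knockdown libraries and 122 in replicate 3, against 0, 56, 26 and 29 in the controls, so the groups overlapped. These genes were named for being called in both lines.

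The remaining lists gave no call in the interaction. Among 32 S phase, 28 G2 and M phase, 30 MYC and ribosome biogenesis, 32 glycolysis, 30 oxidative phosphorylation, 26 cholesterol and 38 ribosomal protein genes none was called, with median interactions of -0.01, -0.16, 0.19, -0.16, -0.11, 0.20 and 0.05. Neither was any of 13 mitochondrially encoded genes (median 0.43), where the libraries differed: these genes took 14.04% and 10.3% of reads in SUDHL4 knockdown, 9.76% in SUDHL4 control, 8.21% to 13.4% in OCI-Ly7 knockdown and 7.80% to 13.2% in OCI-Ly7 control. None was called among plasma cell (16 tested, median -0.07), p53 (22, -0.09), BCL2 family (18, 0.09), CD40 and NF-kB (22, 0.21), histone (21, 0.31) and myeloid marker (6, 0.79) genes. In the naive and memory B cell list CD69 was the only call of 22, with a median interaction of 0.72.

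**Figure D5:**
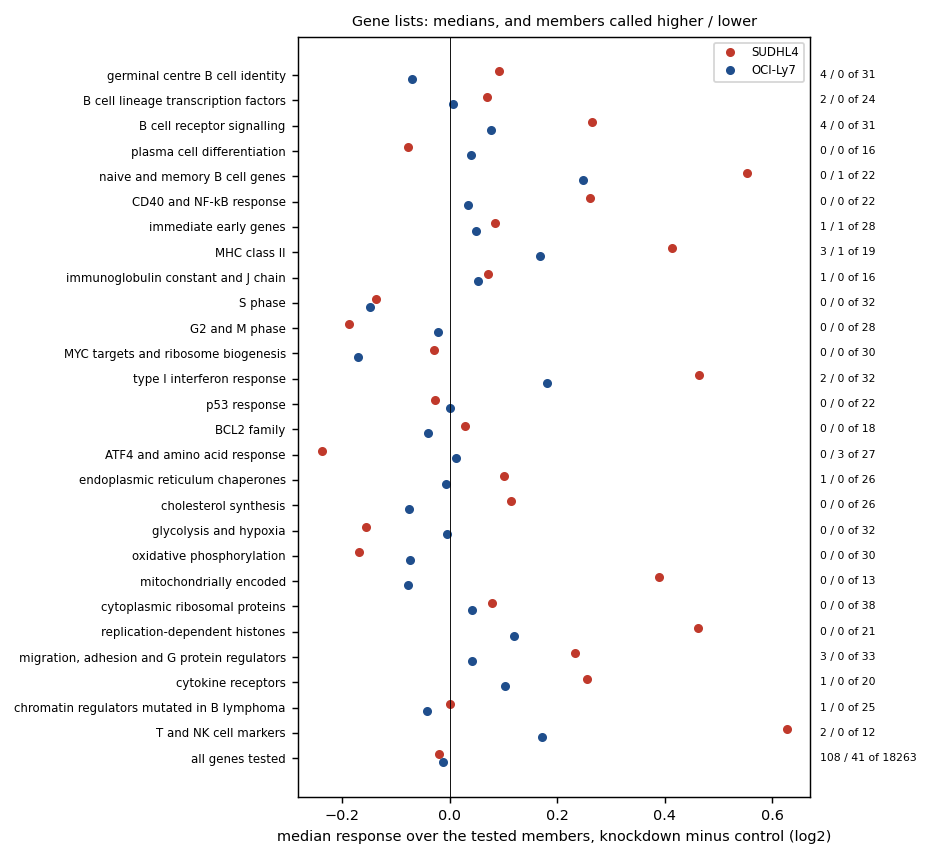
Median log2 response over the tested members of each gene list in SUDHL4 (red) and OCI-Ly7 (blue), with the members called higher and lower in the interaction and the number tested at the right. Lists with at least 10 tested members are drawn. The red median is farther from 0 than the blue for MHC class II (0.41 and 0.17), the interferon response (0.46 and 0.18) and the ATF4 list (-0.24 and 0.01). The same holds for other lists, such as T and NK cell markers (0.63 and 0.17), mitochondrially encoded genes (0.39 and -0.08) and histones (0.46 and 0.12). It does not hold for S phase (-0.14 and -0.15) or MYC and ribosome biogenesis (-0.03 and -0.17), for example.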

How the data were processed

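Per the submitters' processing notes, the authors trimmed reads with fastp and quantified them with Salmon 1.5.1 on GRCh38.p13. The transcript annotation is not given in the sources used here. The deposited estimated counts of each transcript were summed per gene and rounded, by identifier without version, with GENCODE release 29, which matched 205964 of 227912 transcripts and 98.36% to 98.85% of reads. The deposited TPM and effective lengths (other columns) were not tested. Reads of paralogs and overlapping genes are split by the authors' estimate.

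The 15 libraries were fitted together with edgeR 4.0.16 (R 4.3.3; TMM, filterByExpr with minimum count 10, robust quasi-likelihood test), with 4 group means and blocks for batch 1, each series mark and the 48 h library of OCI-Ly7, which left 6 residual degrees of freedom and a coefficient of variation of 0.0897. Series marks were read from the labels. P-values were adjusted by Benjamini-Hochberg over 18263 genes, and levels are TMM-normalised CPM. The median percents of the 15 genes near 0 in SUDHL4 and the folds over a floor of 3 reads use library totals instead. The intervals are 95%.

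The members, lists and the series block were chosen with earlier results of these data known. Named genes follow 1 rule: the target and partners, the 12 highest and 12 lowest called protein-coding genes at 1 CPM or more in both lines with the SUDHL4 knockdown libraries on the same side, genes with opposite responses of at least 0.3, genes called in both lines, up to 4 called members per list, and called genes restricted to 1 line. CD53, HDAC9, ICOSLG, SWAP70, LTA, LTB and the markers, MS4A1 among them, are outside this rule as such and were named after their values were seen. Alternatives were RLE scaling, no filter, DESeq2 1.42.0, limma voom 3.58.1, other blocks, glmTreat against 1.5-fold, and leaving out each library. Levels of Y-linked genes and XIST, and some genes that the rule names, are not reported here.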

Additional observations from a re-analysis of the deposited data

Results flagged for a closer look

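The interaction itself tested whether the responses of the 2 lines, each with its own medium and batch, differed. With the series as blocks 149 genes passed, and with the batch term 0. Among the named genes the higher log2 values were 2.79 for TNF, 2.62 for EGR1, 2.53 for IFIT2, 2.47 for RAB43, 2.35 for PLEKHO1, 2.30 for MS4A7, 2.28 for SLAMF1, 2.19 for SAMD9L, 2.14 for CUX2, 2.10 for TLR4, 2.03 for TLR7, 1.88 for PTPN6, 1.81 for CNR1, 1.73 for TRAC, 1.65 for PRKCB, 1.54 for VWA7 and 1.37 for SPRED2. Smaller ones were 0.99 for IFNGR1, 0.94 for ZFHX3, 0.88 for IGLL5, 0.85 for S1PR2, 0.83 for MEF2C, 0.81 for PDIA4, 0.75 for IRF8, 0.74 for RGS16, 0.67 for HLA-DMB and for CD22, 0.64 for CHD2 and for LCK, 0.58 for CIITA and 0.48 for HLA-DMA. The lower ones were -2.85 for UCHL1, -2.73 for CHAC1 and for YBX3, -2.56 for PHGDH, -2.05 for CD69, -1.87 for NPEPPSP1, -1.75 for MEIS1, -1.64 for GNPDA1, -1.16 for EPN2, -1.08 for KIAA0040, -0.92 for PIM1, -0.88 for CYP2R1 and for NREP, -0.78 for TMEM143, -0.76 for CD55, -0.66 for ASNS and -0.66 for NOTCH2. For genes with under 10 reads in the SUDHL4 control or in both SUDHL4 knockdown libraries together, the edgeR adjusted p was 0.00084 for C22orf46P, 0.0061 for MFSD4B, 0.0026 for TMPRSS15, 0.0071 for HLA-DQA2, 0.0096 for GAB1, 0.041 for TRPM4 and 0.0067 for SLITRK5.

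Single OCI-Ly7 libraries lay far from the rest of their group by Dixon's test, which flags about 1 in 20 groups by chance. Among the 8 knockdown libraries, replicate 1 was high for TNF (8.18 CPM), EGR1 (12.2 CPM), IFIT2 (3.79 CPM), CD55 (26.4 CPM), HHEX (4.66 CPM), ZEB2 (24.7 CPM), FCRL2 (34.7 CPM), PLXNC1 (24.3 CPM), PTPN6 (95.9 CPM) and TRPM4 (20.0 CPM). It is the only library of series s1 and adds nothing to the fitted response. Replicate 3, the 48 h library, was high for POU2F2 (148 CPM), PDIA4 (70.0 CPM) and RNU6-33P (2.67 CPM) and low for NOTCH2 (137 CPM), and replicate 8 was high in its mitochondrial share (13.4%). Among the 4 controls, replicate 8 was high for PRKCB (126 CPM), replicate 1 low for ASNS (102 CPM) and replicate 7 high for TRAC (42.8 CPM).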

How the results depend on the processing

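Counts of calls are given in the order interaction, SUDHL4 and OCI-Ly7, against 149, 396 and 86. They were 533, 827 and 561 without the filter on low counts, 42, 122 and 19 with all 22 libraries, and 28, 64 and 3 by glmTreat against 1.5-fold. DESeq2 called 299 in the interaction and 283 in OCI-Ly7. With the batch term the counts were 0, 1 and 0, and with no block 0, 2 and 0 (edgeR; 375 and 370 genes at an unadjusted p below 0.05 in the interaction). Series s0 alone, an alternative chosen after seeing the data, gave 388 (151 higher and 237 lower), 1082 and 797. Leaving out 1 library gave 62 (without SUDHL4 knockdown replicate 1) to 485 (without OCI-Ly7 control replicate 7), 167 to 800 (the same libraries) and 13 to 81. The interaction count was 82 without OCI-Ly7 control replicate 9 or knockdown replicate 8 and 94 without knockdown replicate 2. Leaving out the trace genes was also chosen after seeing the data.

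Replicate numbers did not pair the OCI-Ly7 samples: same-numbered pairs correlated at -0.29, -0.25 and 0.41. Same-series pairs correlated at 0.47, 0.47 and 0.47 in s0, 0.39 and 0.37 in s2 and 0.63 in s3. The s2 knockdown replicates 2 and 7 followed the s3 control about as closely, at 0.41 and 0.39. This check therefore does not separate s2 from s3. The control file numbered 3 was not a library of its own; knockdown replicate 3 correlated at 0.72 with the control library that holds its reads. The replicate block called 0, 0 and 0 genes (2109 in the interaction at an unadjusted p below 0.05), and reversed ZEB2 (-0.92), FCRL2 (-0.047), PLXNC1 (-0.31) and CHD2 (-0.029).

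POU2F2 kept its negative interaction throughout and passed without the filter (-1.02, adjusted p = 1.1e-12), with DESeq2 (-1.02, 0.00020), with OCI-Ly7 knockdown replicate 3 in the batch 1 block (-1.09, 0.032) and in some fits without 1 library. Over all fits without 1 library, passing or not, it ranged from -0.87 to -1.21. It did not pass at the other settings. Among these were the batch term (-1.205, edgeR adjusted p = 0.9999), no block (-0.95), all 22 libraries (-1.007, 0.61), the replicate block (-0.68, 0.53) and glmTreat (0.91). PRICKLE1 reversed in series s0 (-0.54) and without OCI-Ly7 control 8 (-0.050), control 9 (-0.069) or knockdown 8 (-0.067), with 0.36 as its highest value without 1 library, as did HHEX (-0.13) and PLXNC1 (-0.11) in s0. RNU6-33P reversed with the batch term (-1.97), with no block (-2.40) and with knockdown replicate 3 in the batch 1 block (-0.77). None of these was called where it reversed. The cause was not tested. The SUDHL4 control could not be left out, and the batch term gave no called promoters to search.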

Other observations

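Neighbours of TNF on chromosome 6 were called as well, chosen here after their values were seen. LTA, which encodes lymphotoxin alpha, averaged 6.53 CPM in SUDHL4 knockdown and 2.62 CPM in SUDHL4 control, against 7.72 CPM in OCI-Ly7 knockdown and 5.91 CPM in OCI-Ly7 control, with an interaction of 1.09 ± 0.21 (edgeR adjusted p = 0.031). LTB, the membrane partner of lymphotoxin, averaged 91.2 CPM in SUDHL4 knockdown and 42.2 CPM in SUDHL4 control, with 43.6 CPM in OCI-Ly7 knockdown and 41.5 CPM in OCI-Ly7 control (0.99 ± 0.20, adjusted p = 0.042). The B cell antigen MS4A1 (CD20) averaged 1681 CPM in SUDHL4 knockdown and 875 CPM in SUDHL4 control, with 835 CPM in OCI-Ly7 knockdown and 791 CPM in OCI-Ly7 control (0.79 ± 0.13, adjusted p = 0.014).

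SWAP70, a B cell switch protein, was at 417 CPM in SUDHL4 knockdown and 246 CPM in SUDHL4 control, with 247 CPM in OCI-Ly7 knockdown and 250.1 CPM in OCI-Ly7 control (0.78 ± 0.10, adjusted p = 0.0035). ICOSLG, the ligand of the T cell costimulator ICOS, averaged 54.6 CPM in SUDHL4 knockdown and 28.6 CPM in SUDHL4 control, with 17.3 CPM in OCI-Ly7 knockdown and 19.1 CPM in OCI-Ly7 control (1.14 ± 0.15, adjusted p = 0.0025).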
